A study of Rattus norvegicus with 6 samples.

Results

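The genes described here are the chemokines and chemokine receptors of the rat, read on 6 one-colour Agilent arrays. They were chosen by name only. A probe was taken when the RefSeq record it was designed to belongs to a gene whose symbol begins with Ccl, Cxcl, Xcl, Ccr, Cxcr or Ackr and a digit, or is Cx3cl1, Cx3cr1, Pf4 or Ppbp. This gave 54 genes (35 ligands and 19 receptors) read by 57 probes, out of 27455 features on the array, and the brightest probe stood for each gene. Ccl20, Cxcl12 and Xcl1 had 2 probes each, and Ackr1, Ackr4, Ccr8 and Cxcl3 were not matched by name to any probe.

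Chemokines are small secreted proteins that guide white blood cells along a concentration gradient by binding receptors of the membrane coupled to inhibitory G proteins. Inflammatory members such as Ccl2 and Cxcl1 are switched on in injured tissue and draw monocytes and neutrophils to an infarct, while homeostatic members such as Ccl21, Cxcl13 and Cxcl12 position lymphocytes, stem cells and progenitors. Atypical receptors (Ackr) bind ligands without G protein signalling and remove or redistribute them.

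The study followed adipose-derived stem cells (ADSCs), cultured from fat tissue and carrying 124I-HIB, a lipophilic tracer with a radioactive iodine, in infarcted rat heart and in culture. All 6 samples were from Sprague Dawley rats aged 13 weeks, with no genetic alteration named. Myocardium was taken from a sham-operated heart (1 array, called sham), from an infarcted heart injected with PBS into the muscle (1 array, PBS), and from infarcted hearts injected with 124I-HIB-labeled ADSCs (2 arrays, numbered 1 and 3 in the labels and called treated 1 and treated 3). The labels place all 4 myocardial samples at 21 days and count these from a sham operation, so how long after infarction or injection the tissue was taken is not known. ADSCs grown for 14 days made up the remaining 2 arrays, 1 unlabelled and 1 labelled, and no infarct group received unlabelled cells. The labels name neither the part of the heart taken nor whether animals were pooled or the treated pair came from separate animals, and p-values therefore cover just the spread of those 2 samples, which may be technical. In these bulk samples, fewer cells of a type and less RNA per cell cannot be told apart.

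The upstream DNA of the CXC ligands that draw neutrophils (Cxcl1, Cxcl2 and Cxcl6) and of those induced by interferon (Cxcl9, Cxcl10 and Cxcl11) is shown because results below turn on these genes and because each of the 6 windows held a kB-like motif, the kind of site bound by NF-kB, a transcription factor of inflammation. Each window is RefSeq sequence of assembly GRCr8, runs 5′ to 3′ on the gene's own strand from 250 bases before to 50 bases after the gene's start, and has matches to GGNNTTTCC on either strand in capitals.
Cxcl1 (chr14:17479272-17479571, minus strand): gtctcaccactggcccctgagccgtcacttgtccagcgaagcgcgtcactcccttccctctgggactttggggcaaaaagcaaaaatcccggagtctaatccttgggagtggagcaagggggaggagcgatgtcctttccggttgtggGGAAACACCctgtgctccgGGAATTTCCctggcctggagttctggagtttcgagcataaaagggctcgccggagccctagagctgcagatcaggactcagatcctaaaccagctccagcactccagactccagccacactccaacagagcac
Cxcl2 (chr14:17467206-17467505, minus strand): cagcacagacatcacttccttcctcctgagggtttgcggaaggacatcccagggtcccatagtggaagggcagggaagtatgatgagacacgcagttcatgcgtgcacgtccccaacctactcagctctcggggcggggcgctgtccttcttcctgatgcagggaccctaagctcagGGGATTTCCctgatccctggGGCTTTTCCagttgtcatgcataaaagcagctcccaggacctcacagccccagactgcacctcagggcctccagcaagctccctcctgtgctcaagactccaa
Cxcl6 (chr14:17596368-17596667, minus strand): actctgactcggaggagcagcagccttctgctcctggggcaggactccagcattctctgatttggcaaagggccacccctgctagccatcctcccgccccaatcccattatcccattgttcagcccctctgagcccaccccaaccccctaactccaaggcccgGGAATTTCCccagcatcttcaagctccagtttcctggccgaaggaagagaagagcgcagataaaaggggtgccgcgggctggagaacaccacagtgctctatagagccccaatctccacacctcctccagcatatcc
Cxcl9 (chr14:16006916-16007215, plus strand): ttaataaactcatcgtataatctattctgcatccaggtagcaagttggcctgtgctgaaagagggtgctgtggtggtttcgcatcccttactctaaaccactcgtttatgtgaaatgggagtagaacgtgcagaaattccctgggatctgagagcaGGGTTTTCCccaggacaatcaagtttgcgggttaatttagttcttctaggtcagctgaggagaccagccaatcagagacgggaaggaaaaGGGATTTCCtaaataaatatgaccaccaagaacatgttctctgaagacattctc
Cxcl10 (chr14:15988816-15989115, plus strand): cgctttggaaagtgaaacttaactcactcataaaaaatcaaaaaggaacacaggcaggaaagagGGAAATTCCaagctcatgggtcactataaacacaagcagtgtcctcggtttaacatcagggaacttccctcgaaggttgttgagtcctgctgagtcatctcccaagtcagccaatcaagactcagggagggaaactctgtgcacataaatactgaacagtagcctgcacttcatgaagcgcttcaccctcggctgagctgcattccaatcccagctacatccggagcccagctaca
Cxcl11 (chr14:15973478-15973777, plus strand): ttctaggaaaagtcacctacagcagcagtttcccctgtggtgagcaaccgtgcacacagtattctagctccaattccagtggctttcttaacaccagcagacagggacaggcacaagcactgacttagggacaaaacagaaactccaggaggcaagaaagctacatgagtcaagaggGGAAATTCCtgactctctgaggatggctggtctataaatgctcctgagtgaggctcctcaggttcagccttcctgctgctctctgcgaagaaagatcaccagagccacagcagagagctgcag
Matches began at -102 (minus strand) and -83 in Cxcl1, at -73 and -53 in Cxcl2, at -87 in Cxcl6, at -94 and -4 in Cxcl9, at -186 (minus strand) in Cxcl10 and at -73 (minus strand) in Cxcl11, counted from the gene's start. In all, 9 of the 42 members with a window held the motif (21.4%), the other 3 being Ccl9, Ccl20 and Ccr3, against 6.05% of 33469 windows of the same length. No filter by gene type was applied to the 33469 windows, and the members include neighbouring relatives. The shares given for each motif are therefore descriptive and were not tested. TATAAA, the core of a TATA box, was found in 13 of the 42 (31.0%) against 14.2% of all windows. GAAANNGAA, a motif like that bound by interferon-induced factors, was found in Ccl19, Ccr2 and Cxcl10 (7.14% against 9.71%). Both strands were searched for each motif, and no match overlapped another in the 6 windows shown. These are matches of letters and not measured binding sites. In the order of protein-coding genes on GRCr8, Cxcl9, Cxcl10 and Cxcl11 are direct neighbours, as are Cxcl1 and Cxcl2, while Cxcl6 lies beside the platelet chemokine genes Ppbp and Pf4.

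Levels below are log2 processed signal relative to the array's own 75th percentile, so that 0 is the signal at that percentile, and a level of 1 probe is never set against that of another. That percentile was a signal of 772 to 1276 on the myocardial arrays and 2360 to 2615 on the cell arrays, and between 64.4% and 69.4% of probes were well above background. No spot was saturated. All 8 ventricular muscle markers were well above background on all 4 myocardial arrays, and Myh6, Myh7, Myl2 and Myl3 were on neither cell array. In the cells, all 5 mesenchymal surface markers on the array (Thy1 among them) were well above background. Of 3 hematopoietic markers there, Ptprc and Spn were not well above background and Cd34 was, and 4 of 10 macrophage markers (Cd68, Csf1r, C1qb and Aif1) and 4 of 11 T and NK cell markers (Cd3d, Gzma, Gzmb and Nkg7) were well above background on both cell arrays. The PBS array stood apart in markers of atrial muscle: the summed signal of 5 such markers, in multiples of the 75th percentile, was 312 there against 7.70 in sham, 38.9 in treated 1 and 12.2 in treated 3. All 5 were well above background in PBS, against 3 in sham, 2 in treated 1 and 3 in treated 3. Outside PBS, 1 marker made up most of the sum on each array. The summed signal of its 3 mesothelial markers stood apart as well, at 2.43 against 0.375 to 0.437 on the other 3. Wt1, the only 1 of these well above background in both sham and PBS, did not rise (-1.38 in sham and -1.45 in PBS). Erythroid markers were lowest on the PBS array, at a summed 384 against 679 in sham, 414 in treated 1 and 505 in treated 3, with 3 of 5 being 2-fold below sham. Smooth muscle and pericyte markers were highest there, at 8.92 against 6.69, 5.66 and 7.98, with 1 of 5 measured (Acta2) 2-fold above sham.

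Most of the family could be measured in the heart and fewer members in the cultured cells. The number of the 54 members well above background was 37 in sham, 39 in PBS, 38 in treated 1 and 37 in treated 3, and 29 and 30 in unlabelled and labelled cells. These are 68.5% to 72.2% of members in the heart, where 64.3% to 67.6% of all features were well above background, and 53.7% and 55.6% in the cells, where 69.1% and 67.9% of all features were. On all 6 arrays 22 members were well above background, on all 4 myocardial arrays 36 and on both cell arrays 27. Of all 27455 features, 15886 were well above background on all 6 arrays and 18271 on both cell arrays. No such share was computed for the 4 myocardial arrays together, for the roles or for members on no array. By role, 26 of 35 ligands and 10 of 19 receptors were well above background on all 4 myocardial arrays, against 21 ligands and 6 receptors on both cell arrays. All 9 inflammatory CC ligands were well above background on every myocardial array, and 5 of them on both cell arrays. The 10 members well above background on no array were 5 ligands (Ccl25, Ccl26, Ccl28, Cxcl17 and Ppbp) and 5 receptors (Ccr3, Ccr4, Cxcr1, Cxcr2 and Cxcr5). Among these receptors, Cxcr1 and Cxcr2 mark neutrophils, Cxcr5 marks B cells and follicular helper T cells, and Ccr3 marks eosinophils.

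**Figure D1:**
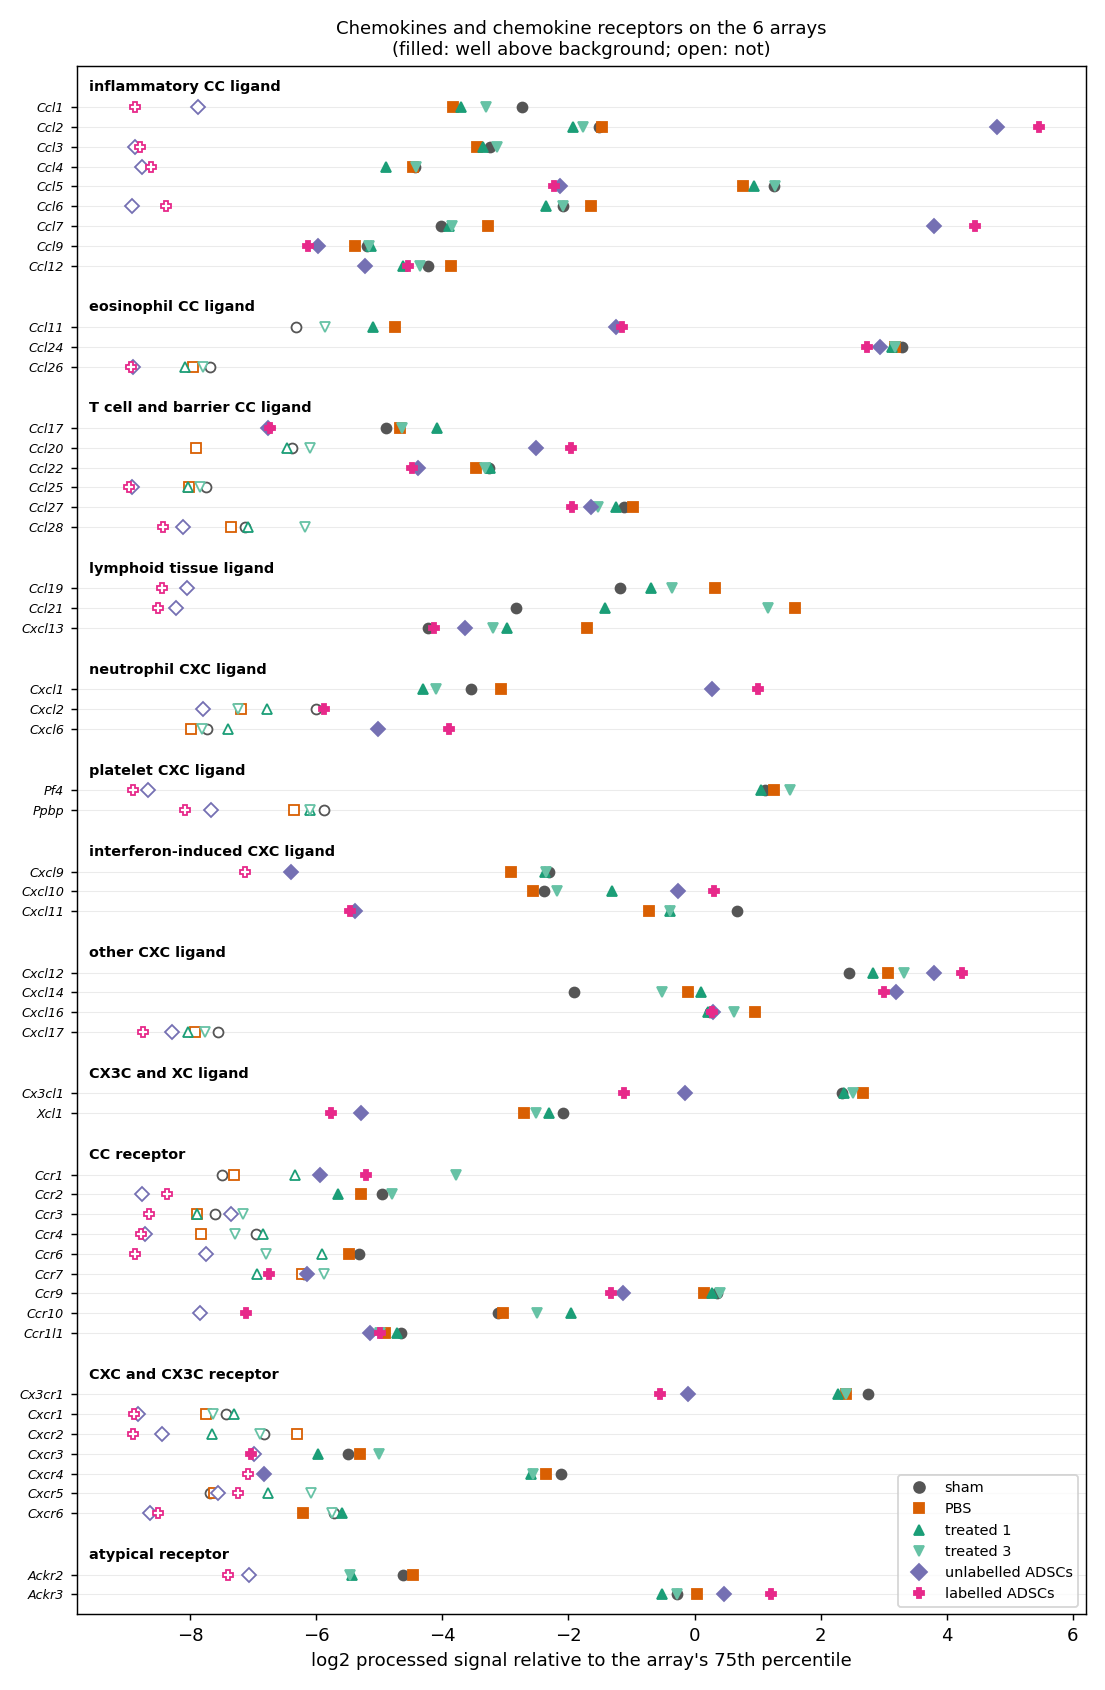
Level of 53 members on each array, as log2 processed signal relative to that array's 75th percentile (horizontal axis), with members grouped by role and 1 symbol for each array. Filled symbols are well above background and open symbols are not; for Ccl2, Ccl7 and Cxcl1 both cell arrays lie to the right of all 4 myocardial arrays, and for Ccl19, Ccl21 and Pf4 they lie far to the left.

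The first comparison set infarcted, PBS-injected myocardium against sham myocardium. All 3 ligands of lymphoid tissue, Ccl19, Ccl21 and Cxcl13, stood at least 2-fold higher in PBS, together with the stromal ligand Cxcl14, while the interferon-induced Cxcl11 and the T cell product Ccl1 stood lower. A member counts as measured where it was well above background on each array compared. Of 37 members so measured, 4 were 2-fold or more higher, where 2.23% of all features measured on both were, and 2 were 2-fold or more lower, where 1.44% were. The median log2 difference was 0.08 over members and -0.05 over all 17255 features. Each side is 1 array, so these differences have no replicate check and no test.

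Ccl21, which lymphatic endothelium and lymph node stroma make to draw dendritic cells and naive T cells, was at -2.82 in sham, 1.60 in PBS, -1.43 in treated 1 and 1.17 in treated 3. Sham was lowest and PBS highest, 21.4-fold above sham, and the treated pair was split. Ccl19, the other ligand of the same receptor, was at -1.19 in sham, 0.32 in PBS, -0.69 in treated 1 and -0.36 in treated 3. The order of sham, treated 1, treated 3 and PBS was the same for both genes, and Ccl19 was 2.84-fold higher in PBS than in sham. Their receptor Ccr7 was well above background on none of the 4 myocardial arrays. Cxcl13, which draws B cells, was at -4.23 in sham, -1.71 in PBS, -2.98 in treated 1 and -3.20 in treated 3. Its PBS array was 5.75-fold above sham, and its treated pair lay between them. The difference of 2.52 on the log2 scale came to 1.44 after normexp background correction, and its receptor Cxcr5 was on no array. That correction, here and below, adds an offset of 50 to each signal, which by itself makes log2 differences of dim probes smaller.

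Markers of the cells that make or follow these ligands were read on the same arrays. The summed signal of 4 lymphatic endothelial markers was 1.19 in sham, 2.22 in PBS, 1.21 in treated 1 and 1.46 in treated 3. Of these 4, only Pdpn, which mesothelium and fibroblasts can also make, was 2-fold higher in PBS (-0.59 in sham and 0.64 in PBS). Prox1, the factor that defines lymphatic endothelium, was at -5.13 in sham and -5.36 in PBS. Of 3 B cell markers on the array, 2 were 2-fold lower in PBS than in sham, Cd79b among them (-4.07 in sham and -5.35 in PBS), and the summed signal of the 3 ran from 0.631 to 0.782 over the 4 arrays. The summed T and NK cell markers ran from 1.46 (PBS) to 1.85 (sham), and those of macrophages were 9.93 in sham, 12.4 in PBS, 9.02 in treated 1 and 9.66 in treated 3. Single macrophage markers were split: 5 of the 9 measured on both arrays stood higher in PBS, and 0 were 2-fold apart (median 0.02). C1qa (0.48) and C1qb (0.45) were among those higher, and Adgre1 (-0.42) and C1qc (-0.43) among those lower. The summed signal of 4 dendritic cell markers was 0.076 in sham, 0.113 in PBS, 0.102 in treated 1 and 0.134 in treated 3. Both dendritic markers measured in sham and PBS stood higher in PBS (median 0.51), and 0 were 2-fold apart. As sums, macrophage, atrial, mesothelial and smooth muscle signals were highest in PBS, as these ligands were, and erythroid signal lowest. The part of these cell types in the result was not tested.

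Cxcl14, a ligand of epithelium and stroma with no settled receptor, was at -1.92 in sham, -0.11 in PBS, 0.11 in treated 1 and -0.51 in treated 3. All 3 infarct arrays lay above sham, PBS by 3.51-fold. The other stromal ligands were closer to sham: Cxcl12, which retains stem and progenitor cells through Cxcr4, was 0.61 higher in PBS, and Cxcl16, the membrane-bound ligand of Cxcr6, was 0.71 higher. Ccl11 (eotaxin, an attractant of eosinophils) was well above background in PBS (-4.76) and treated 1 (-5.09) and not in sham or treated 3. Its PBS signal was at least 2.95-fold above the signal of the same probe in sham, but the difference was -0.01 after normexp background correction. Its receptor Ccr3 was on no array.

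Cxcl11, induced by interferon and a ligand of Cxcr3 and Ackr3, was at 0.67 in sham, -0.73 in PBS, -0.39 in treated 1 and -0.39 in treated 3. Sham was highest and the 3 infarct arrays lay close together, PBS 2.63-fold below sham. The neighbouring interferon-induced ligands were lower in PBS by less, Cxcl9 by 0.60 and Cxcl10 by 0.17 on the log2 scale. Cxcr3, their shared receptor on T and NK cells, was at -5.50 in sham and -5.31 in PBS, and Ackr3 at -0.29 and 0.03. Ccl1, a ligand of Ccr8 made by activated T cells, was at -2.74 in sham, -3.83 in PBS, -3.70 in treated 1 and -3.30 in treated 3. Sham was again highest, 2.13-fold above PBS, and the difference of -1.09 came to -0.81 after normexp background correction, short of 2-fold.

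The other inflammatory ligands and all receptors measured on both arrays differed by less than 2-fold. Over the 9 inflammatory CC ligands the log2 difference of PBS from sham ran from -1.09 (Ccl1) to 0.74 (Ccl7, a monocyte attractant), with 4 higher and 5 lower. Ccl2, the main attractant of monocytes, was at -1.51 in sham and -1.47 in PBS, and its receptor Ccr2 at -4.95 and -5.28. Over the 11 receptors the difference ran from -0.34 (Cx3cr1, a receptor of patrolling monocytes and resident macrophages) to 0.32 (Ackr3). Cxcr4 was at -2.11 in sham and -2.35 in PBS. In Pf4, stored in platelets, and Cx3cl1, the membrane-bound ligand of Cx3cr1, PBS was higher by 0.14 and 0.35.

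**Figure D2:**
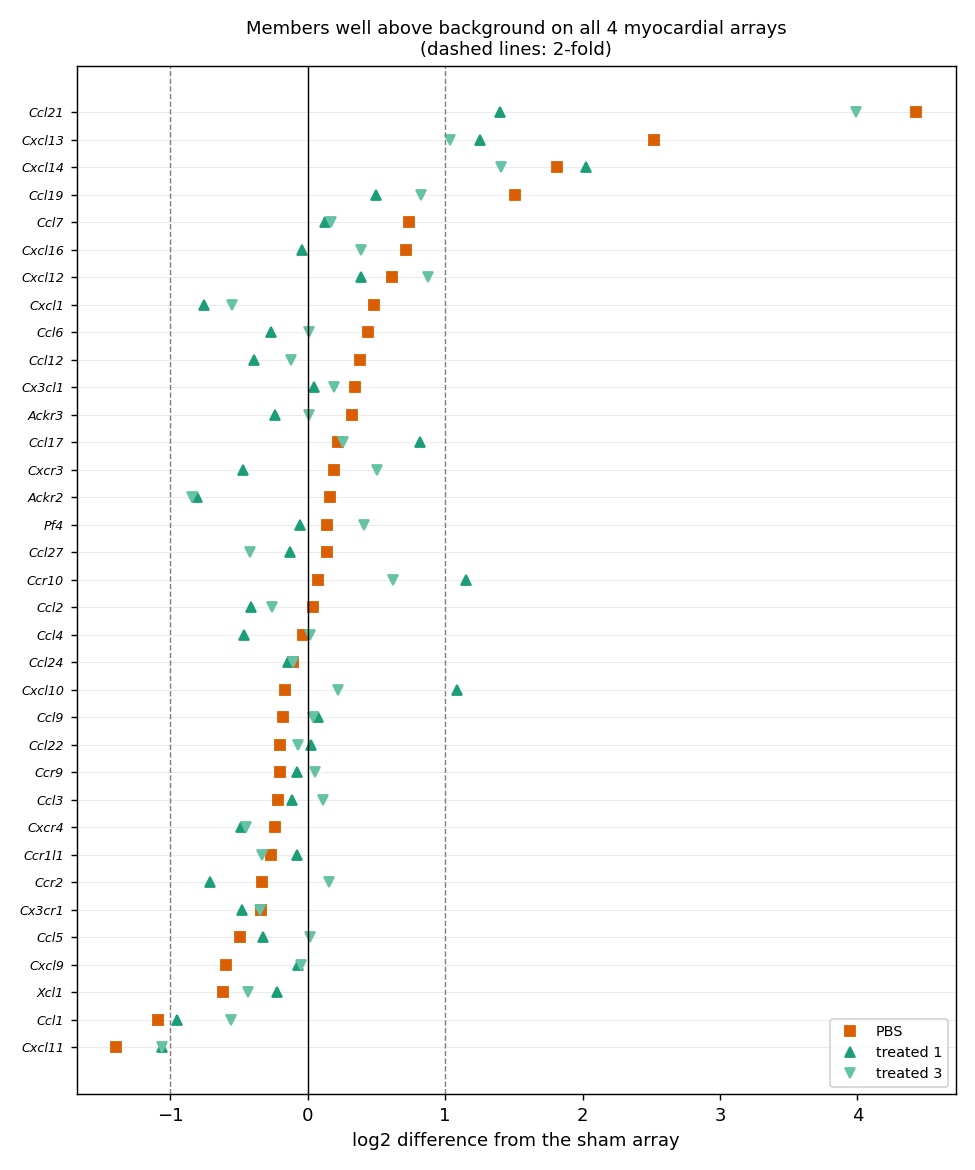
Log2 difference from the sham array for 35 members well above background on all 4 myocardial arrays, for PBS (squares), treated 1 (upward triangles) and treated 3 (downward triangles), in the order of the PBS difference, with dashed lines at 2-fold. Ccl21, Cxcl13, Cxcl14 and Ccl19 lie beyond 2-fold on the right in PBS and Ccl1 and Cxcl11 on the left, and Ccl21 has the widest gap between the treated arrays.

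The second comparison set infarcted hearts given labelled cells against the infarcted heart given PBS. No member stood 2-fold or more higher in both treated arrays, and Cxcl13 and Cxcl1 stood 2-fold or more lower. Among 36 members well above background on the 3 arrays, 0 were higher by this rule and 2 lower, where 0.45% and 0.813% of all features were. The median log2 difference was -0.05 over members and 0.01 over all 17338 features. Both lower members had PBS as their highest myocardial array, and PBS is the same single array as in the comparison with sham. Without treated 1 there were 3 members 2-fold from PBS, all lower (Ackr2 added), and without treated 3 there were 6, of which 4 were lower (Ccl19 and Ccl21 added) and 2 higher (Ccr10 and Cxcl10). Counts that rest on a single treated array follow a looser rule. The shares above do not apply to them, and no share of all features was computed for that rule.

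Cxcl13 (levels above) was 1.27 lower than PBS in treated 1 and 1.49 lower in treated 3. The mean difference of the 2 treated arrays from the 1 PBS array was -1.38 ± 0.19 (SE, 95% interval -1.95 to -0.80), with an adjusted p of 0.307 by limma with Benjamini-Hochberg adjustment. Cxcl1, a neutrophil attractant, was at -3.54 in sham, -3.06 in PBS, -4.30 in treated 1 and -4.10 in treated 3. The treated pair lay below both single arrays, by -1.13 on average from PBS (limma adjusted p = 0.339). After normexp background correction the difference was -0.64, short of 2-fold. Its receptor Cxcr2 was on no array, and the summed signal of 5 neutrophil markers was 0.455 in sham, 0.201 in PBS, 0.158 in treated 1 and 0.268 in treated 3, with Elane on no array. The part of neutrophils in the result was not tested.

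Ackr2, the receptor that removes inflammatory CC chemokines, missed the 2-fold rule in treated 1. It was at -4.62 in sham, -4.46 in PBS, -5.43 in treated 1 and -5.47 in treated 3, so that the treated pair lay below both single arrays and the pair's values were close. The mean difference from PBS was -0.99 (limma adjusted p = 0.335). Over the 9 inflammatory CC ligands the mean difference from PBS ran from -0.63 (Ccl12) to 0.34 (Ccl5). Ccl21 and Ccl19 were lower than PBS in both treated arrays, by -1.73 and -0.85 on average. Neither reached 2-fold in treated 3, and for Ccl21 the 95% interval from limma ran from -5.47 to 2.01. All 3 interferon-induced ligands were higher than PBS on average, Cxcl10 by 0.82, Cxcl9 by 0.54 and Cxcl11 by 0.33, none by 2-fold in both arrays.

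Receptors of the CC class measured here were higher in the treated pair on average in 5 of 5 cases, by 0.05 (Ccr2) to 0.81 (Ccr10), and the 3 of the CXC and CX3C class were lower, by -0.07 to -0.23. Of all features measured, 51.6% were higher. Some of these receptors were split: Ccr2 lay -0.38 from PBS in treated 1 and 0.48 in treated 3, Ccr1l1 0.19 and -0.07, and Cxcr3 -0.66 and 0.31. Ccr9, Ccr10, Cxcr4 and Cx3cr1 kept their direction in both arrays. Ccr6, also of the CC class, was lower in both (-0.43 and -1.32) but not well above background there. Ccr10, a receptor of skin-homing T cells, was at -3.12 in sham, -3.04 in PBS, -1.97 in treated 1 and -2.50 in treated 3. Both treated arrays lay above sham and PBS, treated 3 by less than 2-fold. Its ligand Ccl27 was at -1.11 in sham, -0.97 in PBS, -1.25 in treated 1 and -1.54 in treated 3. Ccr1, a receptor of monocytes and neutrophils, was well above background in treated 3 (-3.78) and on no other myocardial array (-7.49 in sham, -7.30 in PBS and -6.34 in treated 1).

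Fitted together, the 4 myocardial arrays leave 1 residual degree of freedom, from the treated pair, and the single sham and PBS arrays are assumed to vary like it. By limma, 0 of 40 members tested passed an adjusted p of 0.05 against PBS, as did 0% of 19603 features. At an unadjusted p under 0.05 there were 7 of 40 members against 9.66% of all features. Against sham, 0 of the 40 members and 0% of features passed, with 6 members and 9.62% of features under an unadjusted p of 0.05. The lowest adjusted p of a member was 0.307 (Cxcl13) against PBS and 0.371 (Cxcl11) against sham.

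Against sham, the treated pair showed 3 members 2-fold or more higher in both arrays (Ccl21, Cxcl14 and Cxcl13), where 0.581% of all features were, and 1 lower (Cxcl11), where 0.393% were, among 36 measured. This comparison shares sham with the first and the treated pair with the second. Ccl21 was 1.40 above sham in treated 1 and 3.99 in treated 3, Cxcl14 2.02 and 1.41, and Cxcl13 1.25 and 1.03. All treated values of these 3 genes lay above sham, with a limma adjusted p of 0.588 for Ccl21, 0.431 for Cxcl14 and 0.391 for Cxcl13. Cxcl11 was lower by -1.06 in both arrays (95% interval of the mean -1.54 to -0.58, limma adjusted p = 0.371). After normexp background correction Cxcl13 was 0.40 above sham and Cxcl11 -0.99 from it, both short of 2-fold, and Ccl21 no longer reached 2-fold in both arrays, with a mean of 2.16. Ccr6, a receptor of T helper 17 and B cells, was well above background in sham (-5.32) and PBS (-5.47) but in neither treated array (-5.90 and -6.79), at least 2.03-fold below sham by the bound on the pair's mean. The log2 difference was -0.58 in treated 1 and -1.47 in treated 3, and -0.53 on average after normexp background correction, short of 2-fold. Its ligand Ccl20 was on no myocardial array.

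**Figure D3:**
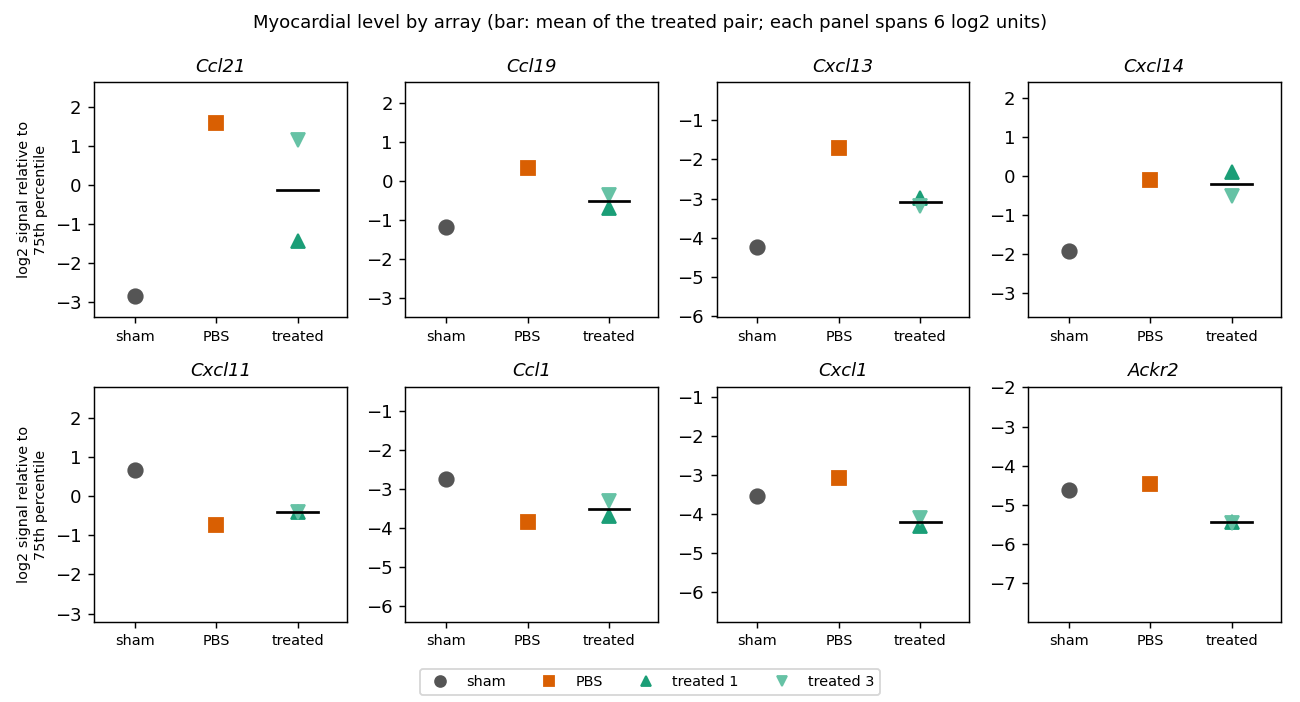
Level on each myocardial array, as log2 signal relative to the 75th percentile, for the 6 members 2-fold apart between PBS and sham (Ccl21, Ccl19, Cxcl13, Cxcl14, Cxcl11 and Ccl1), for Cxcl1 and for Ackr2, with a bar at the mean of the treated pair. Each panel spans 6 log2 units: the treated arrays lie between sham and PBS for Ccl21, Ccl19, Cxcl13, Cxcl11 and Ccl1, and below both for Cxcl1 and Ackr2.

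The treated arrays agreed within 2-fold for all but 1 of 36 members. Ccl21 differed by 2.59 on the log2 scale, the exception, and 1.36% of all features were 2-fold apart between the pair. The difference of treated 3 from treated 1 ran from -0.87 (Cxcl10, at -1.31 and -2.18) to that value, with 24 of 36 members higher in treated 3, where 58.2% of all features were. Beside Ccl21, the lymphatic marker sum was 1.21 in treated 1 and 1.46 in treated 3. Its markers were split: Pdpn was at -0.50 and -0.05, while Prox1 was at -5.66 and, no longer well above background, -6.52. The atrial sum was 38.9 and 12.2, most of it from 1 marker on both arrays. The part of either cell type in the result was not tested.

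The third comparison, between labelled and unlabelled ADSCs in culture, asked how cells with the tracer differ from cells without it. All 3 neutrophil attractants were higher in labelled cells, Cxcl6 by more than 2-fold, and the largest difference the other way among measured members was that of the membrane-bound Cx3cl1. Of 27 members measured on both arrays, 1 was 2-fold or more higher in labelled cells, where 0.449% of all features were, and 0 were lower, where 0.591% were. The median difference was -0.03 over members and -0.04 over all 18271 features, with 13 members higher and 14 lower. Each side is 1 array, so there is no test.

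Cxcl6 was at -5.01 in unlabelled and -3.90 in labelled cells, 2.16-fold higher, and not well above background in any myocardial sample. Cxcl2 was well above background in labelled cells (-5.87) and in no other sample, at least 3.80-fold above its signal in unlabelled cells (-7.80). Cxcl1 was at 0.27 in unlabelled and 1.01 in labelled cells. All 3 neutrophil ligands, whose upstream windows are printed above, were thus higher in labelled cells, but after normexp background correction Cxcl6 differed by 0.62 and Cxcl2 by 0.47. The monocyte ligands stood less than 2-fold higher: Ccl2 was at 4.79 and 5.46, Ccl7 at 3.79 and 4.44 and Ccl12 at -5.23 and -4.55 in unlabelled and labelled cells. Ccl20, which draws cells that carry Ccr6, was 0.55 higher by 1 probe and 0.57 by the other. Cxcl10 was at -0.26 and 0.31, while Cxcl11 was at -5.38 and -5.46 and Cxcl9 was well above background in unlabelled cells only (-6.41).

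Cx3cl1 was at -0.15 in unlabelled and -1.11 in labelled cells, a difference of -0.96, and its receptor Cx3cr1 at -0.10 and -0.55. Both were lower in labelled cells, short of 2-fold. Ackr3, the scavenger of Cxcl12, was 0.75 higher in labelled cells, and Cxcl12 itself 0.43 higher by its brightest probe and 0.03 by the other. Cxcr4, the signalling receptor of Cxcl12, was well above background in unlabelled cells (-6.83) and not in labelled cells (-7.09). Ccr1 was 0.73 higher and Ccr7 -0.61 lower in labelled cells, and Ccr10 was well above background in labelled cells only (-7.12).

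**Figure D4:**
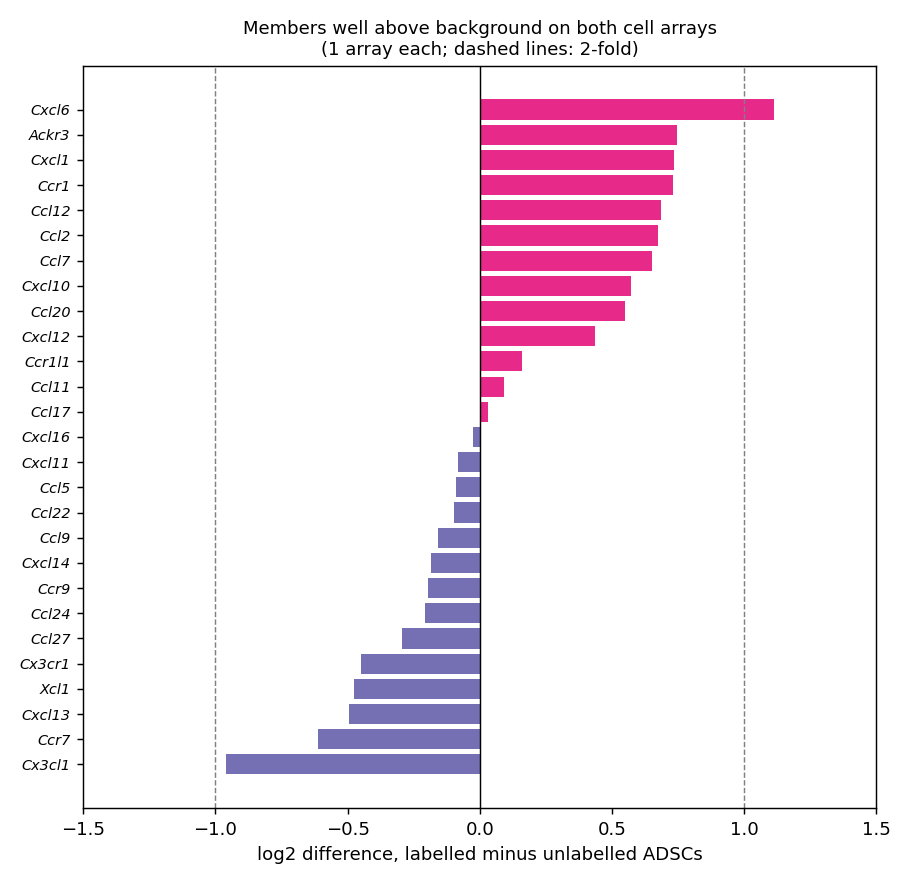
Log2 difference of labelled from unlabelled ADSCs, 1 array each, for the 27 members well above background on both, as bars from 0 in the order of the difference, with dashed lines at 2-fold. Cxcl6 passes 2-fold on the right at 1.11 and Cx3cl1 ends just short of it on the left at -0.96.

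The last comparison described which chemokines the cultured cells and the heart hold, taking the 2 cell arrays against the 4 myocardial arrays. The cells stood higher in monocyte and neutrophil ligands (Ccl7, Ccl2 and Cxcl1), Cxcl14 and Cxcl10, and the heart in Cxcl11, Ccl5, Xcl1, Cx3cl1 and its receptor Cx3cr1. By the rule that the lowest array of 1 side lie 2-fold or more above the highest of the other, 5 of 22 members measured on all 6 arrays were higher in cells, where 14.2% of all features were, and 7 were lower, where 15.9% were. The median difference was -0.60 over members and 0.03 over all 15886 features. Arrays of different conditions are not replicates, and no test was made.

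Ccl7 was at -4.02 in sham, -3.28 in PBS, -3.89 and -3.85 in treated 1 and 3, and at 3.79 and 4.44 in unlabelled and labelled cells. The cells were 235-fold higher on average. Ccl2 was at -1.93 to -1.47 on the myocardial arrays and 111-fold higher in the cells. Ccr2, the monocyte receptor of both ligands, was on all 4 myocardial arrays (-5.66 to -4.80) and on neither cell array. Cxcl1 was 21.0-fold higher in cells and Cxcl14 13.1-fold. Cxcl10 was at -2.56 to -1.31 in the heart and at -0.26 and 0.31 in the cells, 4.39-fold higher on average, while its neighbour Cxcl11 was 37.1-fold lower in cells (-5.38 and -5.46, against -0.73 to 0.67 in the heart). For Cxcl10 the gap between the sides was just past 2-fold (1.04), and it did not reach 2-fold after normexp background correction or with the 75th percentile taken over measured probes only. With normexp the difference was 7.03 for Ccl7 in place of 7.88, 3.53 for Cxcl1 in place of 4.39 and -4.16 for Cxcl11 in place of -5.21.

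Of the members lower in cells, Ccl5, a ligand of T cells and platelets, was at 0.77 to 1.28 in the heart and at -2.13 and -2.22 in the cells, 9.44-fold lower. Xcl1, made by NK and T cells, was 8.74-fold lower, Cx3cl1 8.63-fold and Cx3cr1 6.87-fold. Ccl17, a ligand of T cells made by dendritic cells and macrophages, was 4.51-fold lower, and Ccr9, a receptor of gut-homing T cells, 2.88-fold lower. With normexp the log2 difference was -2.26 for Xcl1 in place of -3.13 and -1.42 for Ccl17 in place of -2.17. The leukocyte marker Ptprc was at -2.16 to -1.52 in the heart and not well above background in the cells, and the summed macrophage markers were at 9.02 to 12.4 in the heart and 0.734 and 0.745 in the cells. The part of leukocytes in these differences was not tested.

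Other members were well above background on 1 side only. Ccl20, Cxcl6 and Ccr7 (3 of 54 members, where 3.66% of all features were) were on both cell arrays and no myocardial array. Ccl20 was at least 19.0-fold and Cxcl6 at least 5.43-fold higher in cells, while Ccr7, at -6.14 and -6.75, lay within the signals of the heart and has no bound. After normexp background correction the log2 difference was 1.71 for Ccl20 and 0.25 for Cxcl6, the latter short of 2-fold. A further 10 members, where 2.98% of all features were, were on all 4 myocardial arrays and on neither cell array. Among these the bound was at least 563-fold for Pf4, 185-fold for Ccl21, 171-fold for Ccl19, 57.9-fold for Ccl6, 24.4-fold for Ccl3, 22.7-fold for Ccl1, 10.2-fold for Ccl4, 6.63-fold for Ccr2 and 4.71-fold for Ackr2. These bounds hold for the processed signal: after normexp background correction the log2 difference was smaller for each, at -6.20 for Pf4, -4.87 for Ccl21, -4.58 for Ccl19, -3.39 for Ccl6, -2.57 for Ccl3, -2.34 for Ccl1, -1.84 for Ccl4, -1.58 for Ccr2 and -1.40 for Ackr2. As background, Ccl3 and Ccl4 are made by macrophages and T cells, and Ccr2 is the receptor of inflammatory monocytes. Pf4 was at 1.06 to 1.52 in the heart. For each bound the mean of the bright side was divided by whichever was larger on a dim array, the probe's own signal or the lowest signal well above background there, which is no limit of detection.

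Cxcl12 was read differently by its 2 probes, which were designed to 2 different RefSeq transcript records. The brightest gave 2.45 in sham, 3.06 in PBS, 2.83 and 3.32 in treated 1 and 3, and 3.81 and 4.24 in unlabelled and labelled cells. The other gave 0.10, 0.49, 0.12 and 0.37 in the heart and 4.07 and 4.10 in the cells. Cells were thus 2.15-fold higher than heart by the first probe and 14.1-fold by the second, while neither probe put any myocardial array 2-fold from sham. For Xcl1 the cells were lower by -3.13 with the brightest probe and -4.99 with the other, whose cell signals were not well above background. The 2 probes of Ccl20 differed little, with cells 4.48 and 4.59 higher.

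**Figure D5:**
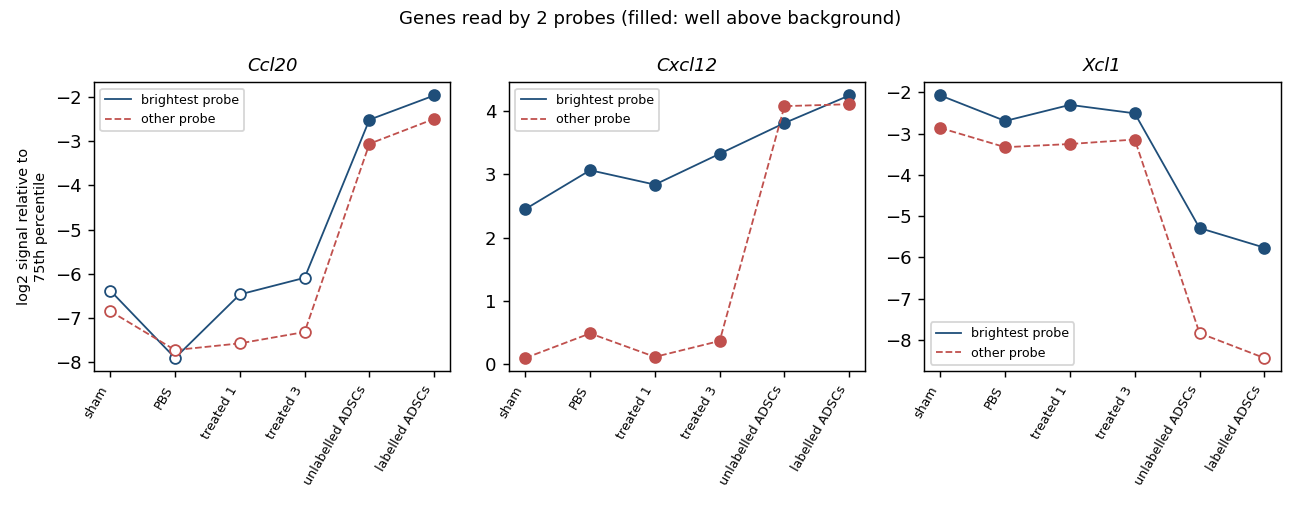
Level on each of the 6 arrays (log2 signal relative to the 75th percentile) of the brightest probe (solid line) and the other probe (dashed line) of Ccl20, Cxcl12 and Xcl1; filled points are well above background and lines only join the points of 1 probe. For Cxcl12 the step from heart to cells is larger in the other probe than in the brightest, and for Xcl1 the other probe is not well above background in the cells.

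Ligands and receptors were then paired by textbook binding, 40 pairs with both genes on the array. Both partners were well above background on all 4 myocardial arrays in 14 pairs, among them Cxcl12 with Cxcr4 and with Ackr3, Cx3cl1 with Cx3cr1, and Ccl2, Ccl7 and Ccl12 with Ccr2. Both were on both cell arrays in 6 pairs, which were Cxcl12 and Cxcl11 with Ackr3, Cx3cl1 with Cx3cr1, and Ccl5, Ccl7 and Ccl9 with Ccr1. In 11 pairs the ligand was on both cell arrays and the receptor on all 4 myocardial arrays, the 2 ligands with the widest gap between cells and heart, Ccl7 and Ccl2, being paired with Ccr2. The arrays show RNA of each gene in a whole sample and not which cells hold it.

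Genes around the family were read from 4 lists. The same 2-fold rules were used, so the shares of all features given above for each comparison apply to these counts. Between cells and heart these shares were 14.2% higher and 15.9% lower in cells. Of the genes that carry chemokine receptor signals (G protein subunits, arrestins, kinases and small GTPases), 19 to 22 were measured in each of the 4 comparisons within heart or within cells, and 0 were 2-fold apart. Between cells and heart 4 of 18 were higher in cells, with a median of 0.60, led by the kinase Jak2 (2.40), and 1, the arrestin Arrb2, was lower (-1.57). Of the cytokines and NF-kB genes upstream of chemokines, 0 of the 17 measured on both arrays were 2-fold apart between PBS and sham. Il1a, an alarm cytokine of injured cells, was not among the 17, being at -6.63 and not well above background in sham, -2.50 in PBS, -5.21 in treated 1 and -3.99 in treated 3. Sham was lowest and PBS highest, and Il1a was the 1 of 18 genes measured in PBS and the treated pair that was 2-fold lower in both treated arrays than in PBS. In labelled cells 1 of 17 was 2-fold higher, the interleukin 1 antagonist Il1rn (0.95 in unlabelled and 2.19 in labelled cells). Il1a itself was well above background in labelled cells only (-4.64, against -6.74 in unlabelled cells). Between cells and heart 5 of 16 were higher in cells, Il1rn by 5.82, and 3 lower, among them Ltb (-5.04) and Tnf (-4.07).

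Of the proteases and proteoglycans that trim or hold chemokines, the heparan sulphate carrier Sdc1 was the 1 of 16 that was 2-fold apart between PBS and sham (-1.80 in sham and -0.79 in PBS). Treated hearts had 0 of 16 apart from PBS, with a median of -0.35, and labelled cells 0 of 16 apart from unlabelled cells. Between cells and heart 10 of 16 were higher in cells, with a median of 1.92, led by the protease inhibitor Timp1 (5.42) and the membrane protease Mmp14 (5.05), and 2 were lower. Among related ligands and receptors, Gpr15lg, the ligand of the lymphocyte receptor Gpr15, was at -3.92 in sham, -1.08 in PBS, -4.26 in treated 1 and -4.33 in treated 3. It was higher on the PBS array than on the other 3 myocardial arrays and was the 1 of 12 genes 2-fold apart in PBS against sham and again in treated against PBS. Between cells and heart 5 of 10 were higher in cells and 3 lower, led by Cd74, which is also a receptor of the chemokine-like cytokine Mif, at -9.45.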

How the data were processed

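Total RNA was labelled with Cy3 and hybridised to Agilent arrays of 1 design, all on 1 slide in 1 scan, so neither could be tested as a batch. The authors deposited each array's scanner output of 58717 spots, with intensity values from Agilent Feature Extraction (version 11.0.1.1, as the submitters' processing notes state). The authors also deposited a table of log2 values; it followed the scanner signals with r of 0.9998 or more and had medians of 8.85 on the myocardial and 9.67 on the cell arrays, and its making is not stated in the labels. Its 2 sets of columns appear separately scaled, so it served as an alternative within each set only.

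Control and outlier-flagged spots were left out, spots of a probe averaged, and the log2 processed signal taken relative to the array's 75th percentile. A probe was well above background when at least 50% of its spots were. Of 30367 probes, 18355 received a symbol through RefSeq (GRCr8) and 12012 did not. The array's own annotation uses an older build, so GRCr8 coordinates are given only for RefSeq promoter windows. Near-identical relatives may share a probe.

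Comparisons counted features well above background on every array and 2-fold or more apart, in both treated arrays where these entered. The treated pair was also tested with limma 3.58.1 in R 4.3.3 (lmFit, eBayes, Benjamini-Hochberg over all features well above background on at least 1 myocardial array), a fit first tested on simulated data. The number of arrays limits precision, and no error is given where a group has 1 array. Values are given for members 2-fold apart, for those measured on 1 side with a bound of 2-fold or more, and for their ligands or receptors; up to 4 genes of a list are named; other members named by value (such as Ackr2, Ccr1, Ccr10 and Cx3cl1 in labelled cells) and marker genes were chosen after their values were seen. One member and 1 marker gene are counted but not reported here by name. The members, lists, pairs and rules were chosen with earlier results of these data known. Alternatives were background correction (normexp, offset 50, on median signals), scaling, source of values, filtering of dim probes, averaging of probes, the limma variance model and leaving out a treated replicate.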

Additional observations from a re-analysis of the deposited data

How the results depend on the processing

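Counts of members 2-fold apart or passing limma were recomputed under each alternative. They stayed within 1.5 times the main count in 39 cases and moved further in 6. The 39 include every limma count, which was 0 throughout. They also include the counts after averaging of probes, which could alter only Ccl20, Cxcl12 and Xcl1. All 6 that moved further were counts 2-fold apart. These were normexp background correction, which gave 1 member in place of 2 for treated against PBS (Cxcl1 lost), 1 in place of 4 for treated against sham (Ccl21, Cxcl11 and Cxcl13 lost) and 0 in place of 1 for labelled against unlabelled cells (Cxcl6 lost); no filter on dim probes, which gave 5 in place of 1 for labelled against unlabelled cells and 32 in place of 12 for cells against myocardium; and leaving out treated replicate 3, which gave 6 in place of 2 for treated against PBS (3 without treated replicate 1, a range of 3 to 6). Without treated replicate 3, Ccl19, Ccl21, Ccr10 and Cxcl10 also passed, and without treated replicate 1 Ackr2 did. No share of all features was computed beside the 2-fold counts of the alternatives. Ccl11 in PBS against sham turned from 1.56 to -0.0124 with normexp. Among single members' values, 128 moved by less than the gene's standard deviation between the 2 treated arrays, 58 by more and 1 turned. This yardstick was used in every comparison, also where no treated array entered. It differed widely by gene, being 0.0022 for Cxcl11 and 1.83 for Ccl21, so these 3 counts are no measure of robustness. No member passed limma under any of the 6 alternatives to each fit, although 82 and 50 features passed with normexp (treated against PBS and against sham), and 58 and 51 with a trended, robust variance model. In cells against myocardium the median of all features was 0.03, but -0.15 with normexp, 0.15 with quantile normalization and -0.09 with the percentile over measured probes. The deposited log2 table was not run for cells against myocardium. No paired analysis was possible because the groups compared share fewer than 2 replicate numbers.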
